A study of Mus musculus with 39 samples.

Results

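The genes described here encode proteins of the spliceosome and the hnRNP proteins. They were taken by symbol, as the probes whose transcript accession RefSeq assigns to a mouse gene symbol beginning with Snrp, Lsm, Sf3a, Sf3b, U2af, Prpf, Srsf or Hnrnp, without Snrpn and without symbols that carry -ps. This gave 117 probes of 75 genes, among 41174 probes on the array and 16535 genes that could be named. All 117 were among the 39517 probes tested, which had an intensity over 10 on at least 1 array of fertilized or cloned embryos. The families were 15 Snrp probes of 10 genes, 17 Lsm probes of 13, 9 Sf3a and Sf3b probes of 8, 5 U2af probes of 3, 24 Prpf probes of 13, 17 Srsf probes of 10 and 30 Hnrnp probes of 18. A gene with several probes, which held for 29 of the 75, is represented by its brightest probe unless another is named.

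The spliceosome removes introns from pre-mRNA and is built anew on each intron from small nuclear ribonucleoproteins (snRNPs) and free proteins. The Sm proteins (Snrpb, Snrpd1, Snrpd2, Snrpd3, Snrpe, Snrpg) form a ring on most spliceosomal snRNAs, and the related Lsm proteins form rings on U6 snRNA or act in mRNA decay. U2af and Sf3 proteins recognise the 3' splice site and the branch point, Prpf proteins act in the tri-snRNP and in the catalytic core, and SR proteins (Srsf) and hnRNPs bind the pre-mRNA and set which sites are used. A growing oocyte stores mRNA, falls silent in transcription before ovulation, and the mouse embryo resumes transcription and splicing in earnest at the 2-cell stage.

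Expression had been measured with 1-colour arrays in 7 groups of (B6xDBA/2)F1 (BDF1) mouse material, with RNA of 10 pooled oocytes or embryos, or of 500 cells, on each array. OC were unfertilized oocytes (n = 7), IVF were fertilized 2-cell embryos (n = 6), and Cumulus were the cumulus cells that served as nuclear donors (n = 4). TSA(-) were 2-cell clones made by transferring a cumulus cell nucleus into an enucleated oocyte, with no drug (n = 8). TSA(+) were such clones given trichostatin A, an inhibitor of histone deacetylases, at 5 nM for 8 h from activation (n = 6). Spi-C NT were clones injected with mRNA of Spi-C, a transcription factor of the ETS family, at 1.0 mg/ml (n = 4) or 0.1 mg/ml (n = 4), without TSA in their labels. All embryos had been cultured for 24 h. Because each array held a pool, no value refers to 1 embryo, and fewer copies of a transcript per embryo cannot be told apart from fewer embryos that express it.

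Levels are log2 intensities relative to the 75th percentile of the same array, so they place a transcript against the rest of its own sample and are no absolute amount. The median 75th percentile ran from 373 units for OC and 918 for Cumulus to 2523 for the lower Spi-C concentration, and IVF stood at 1071. Well above background were, at the median, 57.5% of probes on OC arrays, 63.0% on Cumulus arrays and 71.6% to 73.2% on embryo arrays. Replicate arrays correlated at 0.944 to 0.974 and no 2 were identical. The groups carried the markers of their labels. The log2 of the summed levels of marker genes, in which the brightest genes weigh most, was taken for each array. For 10 oocyte marker genes it was 11.64 to 12.36 in OC and 0.00 to 0.98 in Cumulus, where 6 of them were above background on no array. For 15 cumulus marker genes it was 8.98 to 9.28 in Cumulus and 1.77 to 3.62 elsewhere. The 12 Cumulus and Spi-C NT arrays had been read with another scanner model and software version than the other 27. In comparisons of those groups, the group cannot be told apart from the scanner, the software or the scan day.

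The promoters of a few of these genes are shown because Spi-C belongs to the ETS family, whose members bind a GGAA core, and because these genes had some of the largest differences below. The letters are the 150 bases before the transcription start in RefSeq (GRCm38.p6), written 5' to 3' on the strand of the gene. Capitals mark CCGGAAG, a longer form of the ETS core, where it occurs. GGAA within other letters also occurs in these windows and is not marked, and no motif of Spi-C itself was searched for. Snrpd2 (chr7:19149688-19149837, plus strand) and Snrpc (chr17:27839937-27840086, plus strand) rose from oocyte to embryo, Prpf6 (chr2:181601169-181601318, plus strand) fell, U2af1 (chr17:31658765-31658914, minus strand) was lower in clones, and Prpf19 (chr19:10895081-10895230, plus strand) was lower in Spi-C NT.
Snrpd2: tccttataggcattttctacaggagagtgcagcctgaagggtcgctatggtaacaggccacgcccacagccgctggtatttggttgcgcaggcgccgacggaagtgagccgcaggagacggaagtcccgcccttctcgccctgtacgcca
Snrpc: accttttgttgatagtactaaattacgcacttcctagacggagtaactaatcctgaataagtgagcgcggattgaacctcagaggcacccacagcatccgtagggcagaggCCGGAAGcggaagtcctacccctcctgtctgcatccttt
Prpf6: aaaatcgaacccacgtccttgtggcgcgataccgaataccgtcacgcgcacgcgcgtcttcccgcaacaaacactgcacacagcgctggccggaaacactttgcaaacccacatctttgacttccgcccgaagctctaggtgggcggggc
U2af1: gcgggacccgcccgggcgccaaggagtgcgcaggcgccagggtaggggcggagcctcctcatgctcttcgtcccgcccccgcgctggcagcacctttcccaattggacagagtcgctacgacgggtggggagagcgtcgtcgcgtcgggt
Prpf19: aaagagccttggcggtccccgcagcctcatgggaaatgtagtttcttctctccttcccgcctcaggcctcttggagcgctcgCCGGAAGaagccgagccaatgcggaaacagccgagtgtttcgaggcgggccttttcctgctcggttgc
CCGGAAG began 39 bases before the start in Snrpc and 68 bases before it in Prpf19, and these 7 letters in a row were not in the windows printed for Snrpd2, Prpf6 and U2af1. A further Prpf19 promoter and a further U2af1 promoter in RefSeq, not printed, held no match either. The 150 bases before the start of Prpf4, Sf3b1 and Prpf38b, looked at in the same way and not printed, also held no match. Over 250 bases before the start, CCGGAAG on either strand was found in 20 of 83 promoters of 64 of the 75 genes (24.1%), against 6.91% of all 32851 promoters. The GC box GGGCGG was in 66.3% against 32.7%, CCAAT in 45.8% against 33.8%, and TATAAA in 6.02% against 12.4%, all searched on both strands, and matches of different motifs may overlap. The median GC content of these promoters was 61.2%, and 52.4% over all. These are matches of letters, not binding sites.

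These genes were among the brighter transcripts in every group. The median level of the 117 probes lay at percentile 85.1 of the probes tested in OC and at 86.8 in IVF, and 104 of the 117 were well above background on every OC array and 116 on every IVF array. By array, the median of the 117 probes ran from 2.43 to 2.92 in OC, with a median of 2.68, and from 1.94 to 2.22 in IVF, with a median of 2.06. The TSA(-) arrays lay between 1.76 and 2.06 and the TSA(+) arrays between 1.77 and 1.98. The Spi-C NT arrays lay between 1.74 and 1.93 and the Cumulus arrays between 1.88 and 2.10. At this scaling the OC arrays stood above all others, and the TSA(-), TSA(+) and Cumulus arrays overlapped with IVF. The Spi-C NT arrays, read with another scanner model, lay only just below all IVF arrays (at most 1.93 against at least 1.94).

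**Figure D1:**
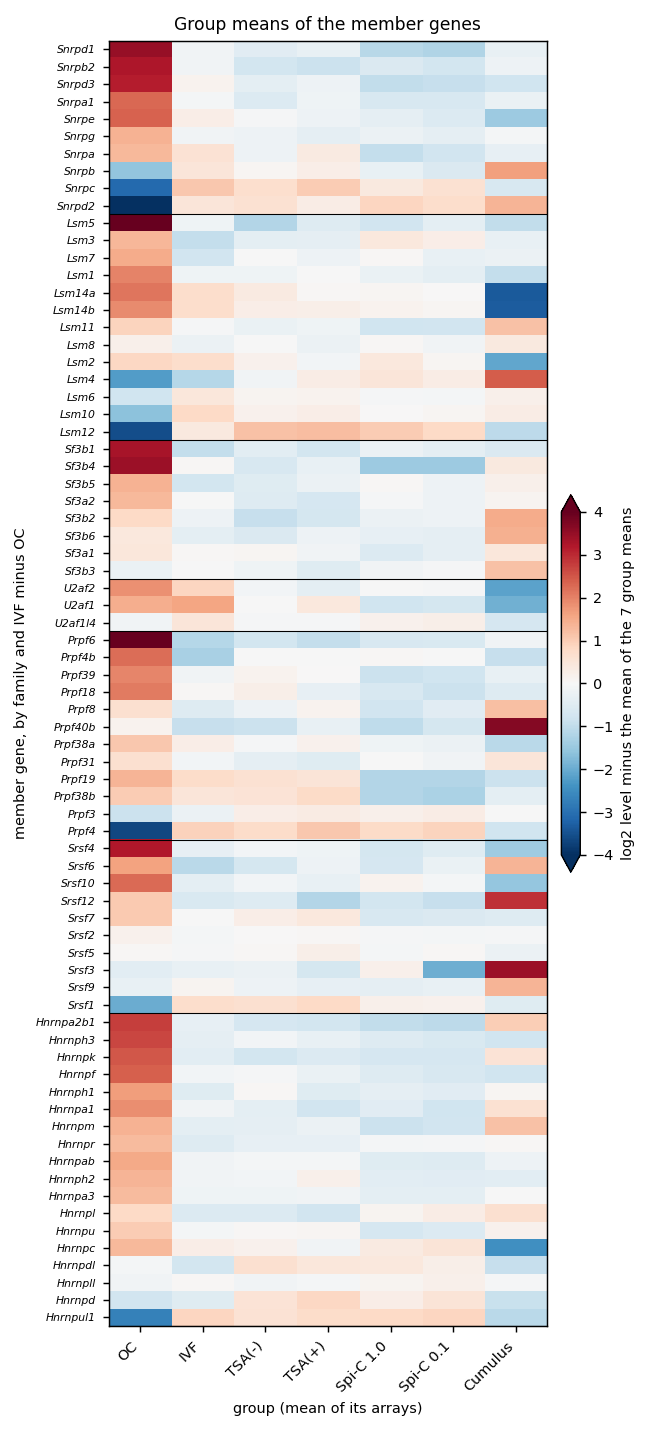
Mean log2 level of 74 of the 75 genes (brightest probe) in the 7 groups, relative to the mean of the 7 group means, ordered by family and by the IVF minus OC difference; colours are clipped at 4 in either direction. Of the 74 rows 46 are highest in OC and 14 in Cumulus, and the remaining 14 peak in an embryo group. This holds for the 75th percentile scaling only, and the same count was not made over all probes. The OC to IVF split depended on the scaling, as given below.

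The first comparison asked how transcripts of the splicing machinery differed between the oocyte and the fertilized 2-cell embryo. From OC to IVF, 71 of the 117 probes were called lower and 22 higher at an adjusted p under 0.01, and 24 were not called. Over all probes tested, 42.7% were called lower and 23.3% higher, and over the probes well above background on every array of either group, 41.7% and 34.3%. The median log2 difference of the 117 probes was -1.04, and that of all probes -0.88. The groups did not overlap for 60 lower and 18 higher probes, against 33.3% and 18.5% of all probes. The split depended on the scaling. After quantile normalization, 41 probes were called higher and 44 lower, with a median of -0.03 for these probes and -0.29 for all (25.5% of all probes higher and 33.1% lower), and the share of higher calls among the calls went from 23.7% to 48.2%. After centring on the median of each array, the counts were 17 and 85 (17.9% and 55.3% of all probes), with medians of -1.72 and -1.55. Under all of 4 scalings (75th percentile, quantile, median, and normexp background correction followed by the 75th percentile), 41 probes were lower and 15 higher, against 29.5% and 12.8% of all probes. The genes described next as having risen or fallen from OC to IVF kept their direction and call under all 4 unless stated. The share of probes above background and the 75th percentile differed between OC and IVF as given above, and their part in these differences was not tested.

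Among the snRNP proteins the direction was mixed. Snrpd2, an Sm protein, had levels of -4.72 to -3.61 in OC (median -3.94) and 0.42 to 1.24 in IVF (median 0.69), and was 27.6-fold higher in IVF (log2 difference 4.79, SE 0.18, adjusted p = 6.46e-20). No IVF array approached the OC arrays. Snrpc, a protein of the U1 snRNP that steadies its contact with the 5' splice site, went from 1.34 to 2.19 in OC (median 1.61) to 5.59 to 6.04 in IVF (median 5.82), 18.0-fold higher (log2 difference 4.17, SE 0.18, adjusted p = 3.32e-18), again without overlap. The other Sm proteins called went the other way or depended on the scaling. Snrpd1, the partner of Snrpd2 in the ring, was at 6.43 to 7.48 in OC (median 6.88) and 3.03 to 3.60 in IVF (median 3.23), a fall of 3.63 on the log2 scale (SE 0.19, 12.4-fold, adjusted p = 1.24e-16). Snrpd3 fell 7.91-fold (adjusted p = 3.14e-17) and Snrpb2, a protein of the U2 snRNP, fell by 3.40 on the log2 scale (adjusted p = 1.5e-18), from 8.43 to 9.41 in OC to 5.36 to 5.97 in IVF. The second Snrpb2 probe was not called. Snrpa1, the companion of Snrpb2 in the U2 snRNP, fell 5.16-fold (log2 difference -2.37, SE 0.20, adjusted p = 1.57e-11). Snrpe and Snrpg had log2 differences of -2.08 and -1.53, but 0.19 and 0.77 after quantile normalization, so neither has a settled direction, and the same held for Snrpa of the U1 snRNP (-0.69, and 0.83 after quantile normalization). Snrpb was at -4.90 to -4.04 in OC, where 5 of 7 arrays were above background, and -2.52 to -2.0 in IVF, with a log2 difference of 2.07 (adjusted p = 6.34e-11), which fell to 0.36 and was not called with normexp (adjusted p = 0.019).

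In the Lsm family 7 of 17 probes were called higher and 7 lower, against 23.3% and 42.7% of all probes. Lsm12, which lies outside the classical rings, rose from -4.46 to -0.13 in OC (median -3.22) to 0.55 to 1.42 in IVF (median 0.97), 15.4-fold (log2 difference 3.95, SE 0.42, adjusted p = 1.52e-09). The OC arrays were spread over more than 4 log2 units, yet none reached an IVF array. Lsm10, of the U7 snRNP that processes histone mRNA, rose 5.39-fold (log2 difference 2.43, adjusted p = 2.39e-13), while Lsm11, its partner in the U7 ring, fell by 0.95 on the log2 scale (SE 0.18, adjusted p = 2.61e-05). Of the Lsm2 to Lsm7 proteins that U6 and the decay ring share, Lsm6 rose on all 4 of its probes (log2 differences 0.62 to 2.22, with 3 of the 4 called under all scalings). Lsm5 went the opposite way, from 1.84 to 3.47 in OC (median 2.89) to -2.11 to -0.29 in IVF (median -1.51), an 18.0-fold fall without overlap (log2 difference -4.17, SE 0.34, adjusted p = 3.71e-12). Lsm3 fell by 2.29 on the log2 scale, and Lsm2 did not pass the test (log2 difference -0.12, SE 0.24, adjusted p = 0.656).

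**Figure D2:**
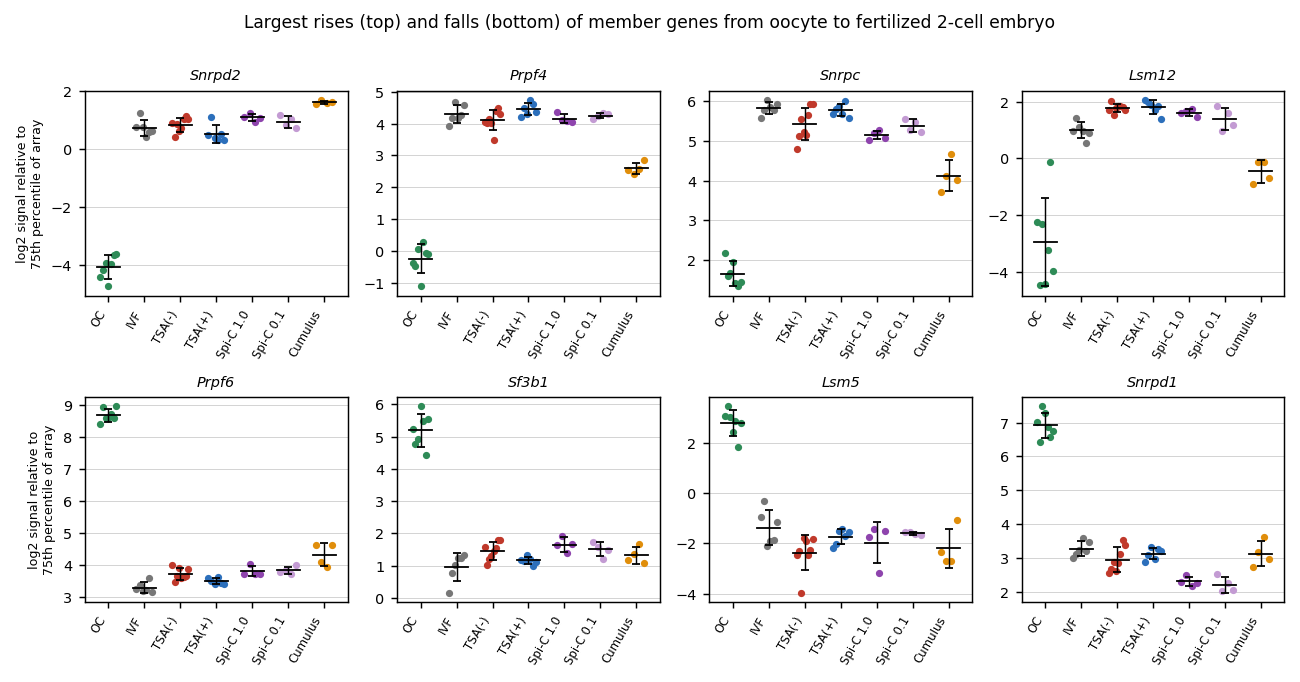
Log2 level by array (points) with mean and SD in the 7 groups for 4 genes higher and 4 genes lower in IVF than in OC. Snrpd2, Prpf4, Snrpc and Lsm12 (top) are at their lowest in OC and Prpf6, Sf3b1, Lsm5 and Snrpd1 (bottom) at their highest, and the IVF and clone arrays lie close to each other.

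The Sf3a and Sf3b proteins, which act at the branch point, were mostly lower in the embryo, and the U2af probes went both ways. Of the 9 Sf3a and Sf3b probes 7 were called lower and 0 higher, against 42.7% and 23.3% of all probes. Of these 7, 5 were lower under all 4 scalings, against 29.5% of all probes. Sf3b1, the large scaffold of the SF3b complex, was at 4.43 to 5.94 in OC (median 5.23) and 0.16 to 1.32 in IVF (median 1.12), an 18.9-fold fall (log2 difference -4.24, SE 0.21, adjusted p = 3.83e-17) without overlap. A dimmer Sf3b1 probe fell by 1.54 (adjusted p = 0.00543) and its groups overlapped. Sf3b4, which contacts pre-mRNA upstream of the branch point, fell by 3.39 on the log2 scale (SE 0.24, adjusted p = 1.81e-13) and Sf3b5, a small subunit, 4.29-fold (-2.10, SE 0.19, adjusted p = 2.62e-11). Sf3b2 had a log2 difference of -1.01, but 0.07 after quantile normalization. Of the 5 U2af probes 2 were called higher and 1 lower, and 1 in each direction under all 4 scalings. U2af2, the large subunit of U2AF, which binds the polypyrimidine tract, fell by 0.98 (adjusted p = 0.00856), a call that was lost without any of 9 single arrays, with adjusted p of 0.0132 to 0.0272. The second U2af2 probe was not called. For U2af1, the small subunit, which reads the AG at the intron end, the brighter probe did not pass the test (log2 difference 0.12) and the dimmer rose by 2.5 (adjusted p = 3.44e-07).

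The Prpf genes held the largest single fall and one of the largest rises. Prpf6, a bridge of the tri-snRNP, went from 8.41 to 8.96 in OC (median 8.58) to 3.15 to 3.58 in IVF (median 3.24), a 41.8-fold fall (log2 difference -5.39, SE 0.13, adjusted p = 1.67e-23). Prpf4, a protein of the U4/U6 particle, went from -1.11 to 0.28 in OC (median -0.09) to 3.92 to 4.69 in IVF (median 4.23), a 23.6-fold rise (log2 difference 4.56, SE 0.19, adjusted p = 7.49e-19), and its second probe rose 21.6-fold. Neither gene had overlapping groups, so 2 genes of one particle were among the members with the largest differences in opposite directions. In all, 16 of the 24 Prpf probes were called lower and 5 higher, against 42.7% and 23.3% of all probes. Prpf8, which lines the catalytic centre, fell 2.26-fold (log2 difference -1.17, SE 0.19, adjusted p = 3.32e-06). Prpf4b, a kinase of the tri-snRNP, fell by 3.52 on the log2 scale, from 3.35 to 4.45 to -0.01 to 0.90 (adjusted p = 7.65e-13). Of its 4 probes 3 were called lower and 1 was not called. Prpf19, of the complex that activates the spliceosome, differed by -0.62 (adjusted p = 0.00109), a call lost after quantile normalization (-0.18, adjusted p = 0.299). Probes of Prpf18 and Prpf31 were called in opposite directions, so no direction is given for these genes.

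Of the SR proteins, 9 of 17 probes were called lower and 3 higher, against 42.7% and 23.3% of all probes. Srsf1, which both enhances exon use and shuttles with mRNA, rose from 1.19 to 2.30 in OC (median 1.57) to 4.19 to 4.67 in IVF (median 4.47), 6.41-fold (log2 difference 2.68, SE 0.20, adjusted p = 1.08e-12), and a probe for another of its transcripts rose 13.8-fold. Both probes of Srsf1 were without overlap. Srsf4, another SR protein with a long RS domain, fell 11.4-fold, from 7.85 to 8.60 in OC (median 8.31) to 4.46 to 4.94 in IVF (median 4.85), with an adjusted p of 1.55e-19. Srsf6 fell 6.34-fold (log2 difference -2.66, SE 0.26, adjusted p = 1.83e-10). Srsf7 had a log2 difference of -1.06 that turned to 0.93 after quantile normalization. The brightest Srsf2 probe was not called (log2 difference -0.25, and 1.65 after quantile normalization), while its other 2 probes fell under all 4 scalings. Srsf3, a dim probe, was not called (log2 difference 0.14, adjusted p = 0.848), but was called lower with normexp (-1.0), so it has no settled direction.

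Of the 30 Hnrnp probes 23 were called lower and 2 higher, against 42.7% and 23.3% of all probes, with a median log2 difference of -1.54. Under all 4 scalings 9 were lower and 2 higher, against 29.5% and 12.8% of all probes. The lower share was then close to that of all probes. Hnrnpk, a C-rich RNA binder, was at 8.73 to 9.69 in OC (median 9.38) and 6.17 to 6.64 in IVF (median 6.46), 7.46-fold lower (log2 difference -2.90, SE 0.16, adjusted p = 3.5e-16). Hnrnpa2b1, an hnRNP core protein, fell 8.54-fold (log2 difference -3.09, SE 0.17, adjusted p = 3.07e-16), from 7.32 to 8.31 in OC to 4.48 to 5.08 in IVF. Hnrnph3 and Hnrnpf, which bind G-runs, fell 8.23-fold and 5.69-fold (log2 differences -3.04, SE 0.18, and -2.51, SE 0.16). None of these 4 had overlapping groups. Hnrnpa1, the best known splicing repressor of the family, differed by -2.0, but by 0.23 after quantile normalization, although its other 2 probes fell under all 4 scalings (-3.21 and -3.95), and Hnrnpu turned from -1.10 to 1.06. Hnrnpc fell by 1.04 (adjusted p = 0.00015), which was not called after quantile normalization (-0.25, adjusted p = 0.338), and Hnrnpl by 1.37 (adjusted p = 0.00236; -0.73 and 0.0786). Hnrnpul1, one of the 2 higher, had OC levels of -7.50 to 0.04 and IVF levels of 0.53 to 1.22 (log2 difference 3.58, SE 0.67, adjusted p = 2.24e-05), with 6 of 7 OC arrays above background. The second Hnrnpul1 probe was not called. Within each of 4 scan days that held both groups, the median of the 117 probes was between -1.14 and -0.91, and 90 of the 93 called probes had the same sign every day.

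Genes of the same machinery with other symbols were called as follows, beside 23.3% higher and 42.7% lower over all probes tested. Of 78 probes for other spliceosome proteins, 25 were higher and 38 lower in IVF. Of 50 probes for other splicing regulators, 10 were higher and 26 lower, and of 42 for splicing kinases and factors of snRNP assembly, 21 were higher and 14 lower. Smn1, which loads Sm rings on snRNA, fell 22.1-fold, from 5.57 to 6.44 in OC (median 6.25) to 1.44 to 1.85 in IVF (median 1.52; log2 difference -4.46, SE 0.15, adjusted p = 1.12e-20). Wdr77, of the methylosome that modifies Sm proteins before they are loaded, was above background on no OC array (-7.58 to -6.50) and at 2.64 to 3.51 in IVF (adjusted p = 1.83e-25). Clk2, a kinase of SR proteins, fell 27.6-fold (log2 difference -4.79, SE 0.23, adjusted p = 2.63e-17). Rbm5, a splicing regulator, was at -7.12 to -2.64 in OC, with 5 of 7 arrays above background, and at 4.77 to 5.47 in IVF (log2 difference 9.64, SE 0.43, adjusted p = 3.75e-18).

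**Figure D3:**
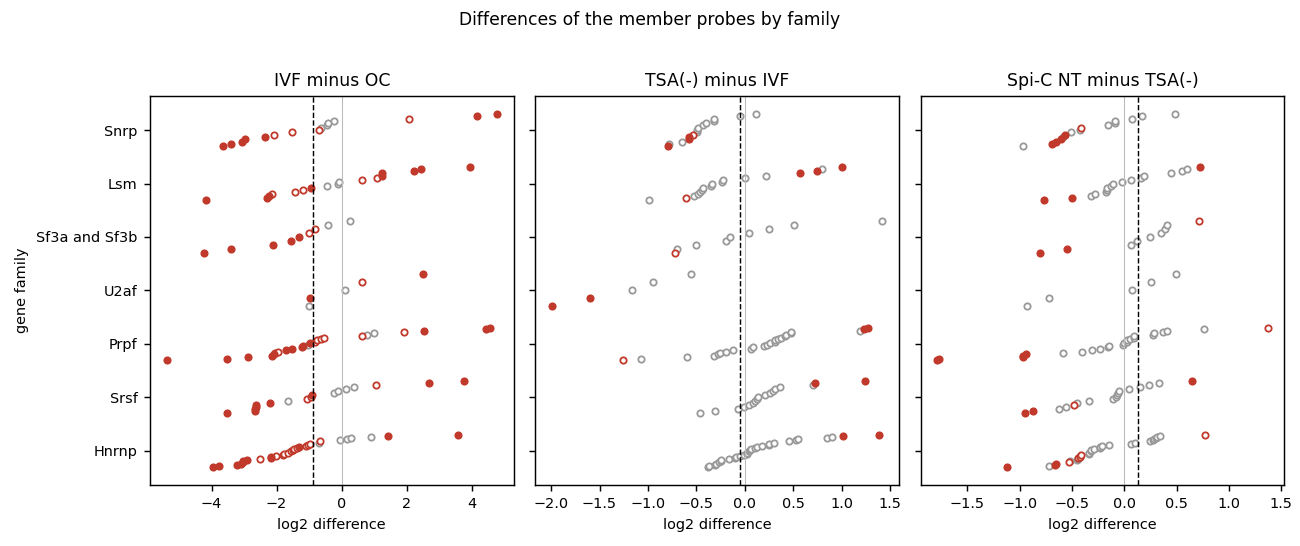
Log2 difference of each of the 117 probes by family for IVF minus OC, TSA(-) minus IVF and Spi-C NT minus TSA(-); filled red points were called under all 4 scalings, open red under the 75th percentile scaling but not under all 4, and open grey were not called, with the median of all probes tested as a dashed vertical line. The spread is widest for IVF minus OC, where Hnrnp and Sf3 points lie mostly left of that line, while all 5 U2af points lie left of it for TSA(-) minus IVF.

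The next comparison asked which of these transcripts differed between clones and fertilized embryos. In TSA(-) against IVF, 9 of the 117 probes were called higher and 9 lower, against 8.49% and 10.3% of all probes tested and 11.6% and 14.1% of those well above background on every array of either group. The share called, 18 of 117, was no larger than the 18.8% of all probes. The median log2 difference was -0.01, with -0.05 over all probes, and 58 probes had positive and 59 negative differences. Groups did not overlap for 11 higher and 7 lower probes, against 6.53% and 8.29% of all. Under all 4 scalings 9 stayed called higher (6.9% of all probes) and 5 lower (8.77%). The lower calls were 4 of 15 Snrp and 2 of 5 U2af probes and 1 each of the Lsm, Prpf and Sf3 probes. The higher calls were 3 of 17 Lsm, 2 of 24 Prpf, 2 of 17 Srsf and 2 of 30 Hnrnp probes.

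U2AF was the family with the largest shift. All 5 of its probes had negative differences, with a median of -1.17. The brighter U2af1 probe was at 4.01 to 4.81 in IVF (median 4.62) and 1.91 to 4.06 in TSA(-) (median 2.68), 3.03-fold lower in the clones (log2 difference -1.60, SE 0.29, adjusted p = 0.000105), with a slight overlap at 1 array. The dimmer U2af1 probe was at 1.35 to 2.10 in IVF (median 1.93) and -1.45 to 1.19 in TSA(-) (median -0.32), 3.98-fold lower (log2 difference -1.99, SE 0.35, adjusted p = 5.32e-05), without overlap. Both were called under all 4 scalings, and the brighter had differences of -2.27 to -0.73 within the 4 scan days. U2af2 was at -1.80 to -1.27 in IVF (median -1.71) and -3.24 to -2.13 in TSA(-) (median -2.59). Its groups did not overlap, but the difference of -0.95 (SE 0.32) missed the threshold (adjusted p = 0.0239). Zrsr1, a relative of U2af1 outside the symbol rule, was also lower, at 0.75 to 1.65 in TSA(-) against 1.86 to 2.63 in IVF (log2 difference -1.15, SE 0.27, 2.22-fold, adjusted p = 0.00175), a call lost after quantile normalization (-1.18, adjusted p = 0.0205). U2af1 was low in the donor cells as well, at 1.34, 1.60, 0.55 and 0.67 in the 4 Cumulus arrays.

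**Figure D4:**
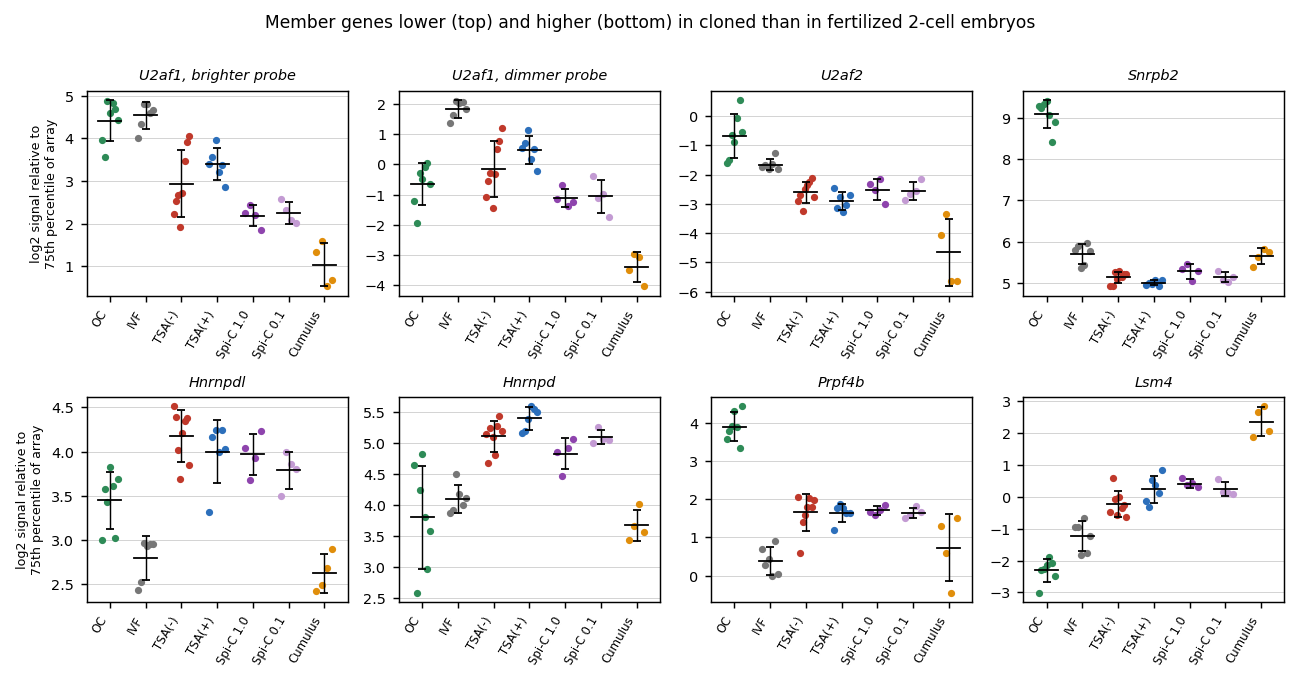
Log2 level by array (points) with mean and SD in the 7 groups for 8 probes in the comparison of clones with IVF. The U2af1 probes, U2af2 and Snrpb2 (top) are lower in the TSA(-) and TSA(+) clones than in IVF, and Hnrnpdl, Hnrnpd, Prpf4b and Lsm4 (bottom) are higher.

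Of the 15 Snrp probes 14 had negative differences between TSA(-) and IVF, with a median of -0.49 and 4 calls. Snrpb2 was at 5.36 to 5.97 in IVF (median 5.78) and 4.92 to 5.28 in TSA(-) (median 5.17), a 1.49-fold difference without overlap (log2 difference -0.57, SE 0.14, adjusted p = 0.00229). Its second probe was not called. Snrpa, which holds a loop of U1 snRNA, was at 3.54 to 4.16 in IVF (median 3.90) and 2.69 to 3.92 in TSA(-) (median 3.0), 1.74-fold lower with some overlap (-0.79, SE 0.18, adjusted p = 0.00145), while its other 3 probes, which are dimmer, were not called. Snrpd3 differed by -0.54 (SE 0.14, adjusted p = 0.00437) with overlap, and this call was lost under median centring (-0.51, adjusted p = 0.0113) and without IVF replicate 4 (adjusted p = 0.0135), IVF replicate 6 (0.0198) or TSA(-) replicate 5 (0.0105). Sf3b2 differed by -0.72 (adjusted p = 0.00714) and Lsm10 by -0.61 (adjusted p = 0.00667), but both calls were lost under median centring (adjusted p = 0.0211 and 0.0238) and when single arrays were left out.

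The 9 probes that were higher in TSA(-) were those of Hnrnpdl, Hnrnpd, Prpf4b, Srsf2, Lsm3, Lsm4 and Lsm7. Hnrnpdl, a relative of Hnrnpd that controls its own splicing, was at 2.44 to 2.96 in IVF (median 2.94) and 3.69 to 4.51 in TSA(-) (median 4.28), 2.60-fold higher (log2 difference 1.38, SE 0.17, adjusted p = 4.61e-07), while its second probe was not called (-0.27). Hnrnpd, which binds AU-rich elements, was at 3.87 to 4.49 in IVF (median 4.05) and 4.68 to 5.43 in TSA(-) (median 5.17), 2.02-fold higher (1.01, SE 0.24, adjusted p = 0.00212). Neither of these pairs of groups overlapped, and both genes were higher within each of the 4 scan days. Prpf4b, which had fallen from oocyte to IVF embryo, was at -0.01 to 0.90 in IVF (median 0.35) and 0.59 to 2.06 in TSA(-) (median 1.81), 2.41-fold higher with overlap (1.27, SE 0.26, adjusted p = 0.000337). A second Prpf4b probe was higher by 1.23 without overlap (adjusted p = 4.86e-06), and its other 2 probes were not called. Both dimmer Srsf2 probes were higher (0.72, adjusted p = 8.73e-05, and 1.24, SE 0.18, adjusted p = 3.02e-06), whereas the brightest, at 5.14 to 6.12 in TSA(-) and 5.47 to 5.64 in IVF, was not called. Lsm3, Lsm4 and Lsm7 of the ring on U6 were also higher without overlap. Lsm4 was at -1.82 to -0.66 in IVF (median -1.09) and -0.63 to 0.60 in TSA(-) (median -0.32), with a log2 difference of 1.0 (SE 0.23, 2-fold, adjusted p = 0.00142). Lsm7 differed by 0.74 (SE 0.18, adjusted p = 0.00253) and Lsm3 by 0.57 (SE 0.16, adjusted p = 0.00606), the last lost without any of 6 single arrays (adjusted p = 0.0103 to 0.0187). Over the 4 scan days, 17 of the 18 called probes had 1 sign throughout.

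Genes outside the symbol rule moved as follows between TSA(-) and IVF, beside 8.49% higher and 10.3% lower over all probes tested. Of the other spliceosome proteins 14 of 78 probes were higher and 7 lower, of the other regulators 4 of 50 each, and of the kinases and assembly factors 9 of 42 higher and 4 lower. Mbnl2, a regulator of alternative exons, was 9.34-fold higher in TSA(-), at -3.24 to -0.98 against -6.26 to -4.45 (log2 difference 3.22, SE 0.46, adjusted p = 2.98e-06). It was also brighter in the donor cells, at 2.53 to 3.67. Gemin4, of the SMN complex, was 3.12-fold higher (1.64, SE 0.22, adjusted p = 1.07e-06), while Smn1 was lower by 0.82 (adjusted p = 8.69e-05) and Srpk1, a kinase of SR proteins, lower by 1.05 (SE 0.19, 2.07-fold, adjusted p = 9.82e-05). The 2-cell marker genes had lower sums in TSA(-), at 5.44 to 6.82, than in IVF, at 7.25 to 7.70, with 8 of 11 probes called lower, while the sums of cumulus markers overlapped, at 2.31 to 3.22 and 2.42 to 3.19, with 0 of 21 probes higher and 1 lower. The part of such shifts in the differences of the splicing genes was not tested.

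In TSA(+) against IVF, 9 of the 117 probes were again called higher and 9 lower, against 7.83% and 11.1% of all probes and 11.1% and 14.7% of those above background in either group. The median log2 difference was -0.10, with -0.23 over all, and groups did not overlap for 17 probes in each direction (8.72% and 11.6% of all). Under all 4 scalings 9 were higher (6.76% of all) and 3 lower (6.41%), and under median centring the counts were 15 and 3, so the share of higher calls went from 50% to 83.3%. This comparison and the previous one used the same IVF arrays, so values that look alike in both are not independent. The log2 of the summed levels of 2-cell embryo markers was 6.02 to 7.03 in TSA(+) and 7.25 to 7.70 in IVF, with 5 of 11 probes lower. That of oocyte markers was 9.03 to 9.23 and 9.49 to 9.64, with 2 of 13 lower. Their part in the differences was not tested. All 5 U2af probes had negative differences (median -1.24) without overlap, and 3 were called lower. The brighter U2af1 probe was at 2.85 to 3.97 in TSA(+) (median 3.39), 2.21-fold below IVF (-1.14, SE 0.31, adjusted p = 0.00618), and U2af2 at -3.29 to -2.47 (median -2.91), 2.37-fold below (-1.24, SE 0.34, adjusted p = 0.00582). Both calls were lost under median centring (-0.93, adjusted p = 0.0355, and -1.03, adjusted p = 0.0245) and, for the brighter U2af1 probe, without any of 8 single arrays (adjusted p = 0.0108 to 0.0193), and for U2af2 without any of 6 (adjusted p = 0.0105 to 0.016). The dimmer U2af1 probe was 2.57-fold lower (log2 difference -1.36, adjusted p = 0.00571), and no U2af probe was called lower under all 4 scalings. Snrpb2 was at 4.92 to 5.07 (median 4.99), 1.63-fold below IVF without overlap (-0.71, SE 0.15, adjusted p = 0.00057; -0.49 and 0.0166 under median centring), and its second probe was lower under all 4 scalings (-1.36, adjusted p = 0.000101).

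The probes higher in TSA(+) included Lsm4, at -0.32 to 0.84 (median 0.24), 2.75-fold above IVF (1.46, SE 0.25, adjusted p = 4.14e-05), and Hnrnpd, at 5.16 to 5.60 (median 5.44), 2.47-fold above (1.30, SE 0.26, adjusted p = 0.000325). Hnrnpdl was at 3.31 to 4.25 (median 4.10), 2.30-fold above (1.20, SE 0.19, adjusted p = 1.1e-05), and Prpf4b at 1.21 to 1.88 (median 1.71), 2.41-fold above (1.27, SE 0.27, adjusted p = 0.000728). None of these 4 overlapped with IVF, and all 4 were called under each of the 4 scalings. The second Hnrnpdl probe and 2 of the 4 Prpf4b probes were not called. Prpf3, a protein of the U4/U6 particle, was 1.47-fold higher, at 3.77 to 4.12 against 3.12 to 3.60 (0.56, SE 0.16, adjusted p = 0.00879), and Lsm3 higher by 0.58 (adjusted p = 0.00824), but the first call was lost without any of 10 single arrays (adjusted p = 0.0104 to 0.0247) and the second without any of 11 (0.0106 to 0.022). Lsm14a, a protein of cytoplasmic mRNA granules, was 1.58-fold lower, at 4.51 to 4.80 against 5.10 to 5.68 (-0.66, SE 0.15, adjusted p = 0.0016; -0.44 and 0.0273 under median centring). Snrpa, lower in TSA(-), differed by -0.23 in TSA(+) (adjusted p = 0.411). Within each of 3 scan days all 18 called probes kept their sign. Of the other spliceosome proteins 12 of 78 probes were higher and 7 lower, of the other regulators 4 and 5 of 50, and of the kinases and assembly factors 7 and 4 of 42. The shares over all probes tested were 7.83% higher and 11.1% lower.

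The direct comparison of TSA(+) with TSA(-) asked whether the drug shifted these transcripts in clones. No probe of the 117 was called in either direction with limma, and 54 probes were called over the whole array (0.137%). At an unadjusted p under 0.05, which unchanged probes pass at a rate of 0.05, 12 of the 117 passed. The share of all probes at that threshold is not given here, so the 12 are not read as an excess. Tukey's HSD after analysis of variance called 2 lower, while over all probes it called 1.41% lower and 0.61% higher. Groups did not overlap for 3 lower probes and 0 higher, against 0.817% and 0.653% of all. The median log2 difference was 0.03, with -0.11 over all probes. Prpf18, which acts in the second step of splicing, had the smallest p. It was at 5.10 to 5.67 in TSA(-) (median 5.47) and 4.64 to 4.93 in TSA(+) (median 4.92), without overlap (log2 difference -0.57, SE 0.16, unadjusted p = 0.00113, adjusted p = 0.063), and its second probe differed by -0.59 (SE 0.15, adjusted p = 0.0449). Snrpa differed by 0.56 (SE 0.18, unadjusted p = 0.00486, adjusted p = 0.113), Hnrnph1 by -0.51 (unadjusted p = 0.0292, adjusted p = 0.243) and Sf3b3 by -0.33 (SE 0.15, unadjusted p = 0.0358, adjusted p = 0.266). The brighter U2af1 probe differed by 0.46 (unadjusted p = 0.129, adjusted p = 0.455). Of the 3 lists of other splicing genes 0 probes were called. Values that miss the threshold do not show that the groups are alike.

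The donor cells, the nuclear source of the clones, were also set against IVF embryos. In Cumulus, 39 of the 117 probes were lower and 25 higher, against 31.3% and 23.9% of all probes and 41.1% and 31.2% of those above background in either group, and groups did not overlap for 40 and 28 (30.1% and 23.7% of all). The split depended on the scaling, with 54 higher and 21 lower under median centring (median 0.64, with 0.75 over all probes, against -0.25 and -0.14) and a share of higher calls of 72.0% against 39.1%. Under all 4 scalings 24 were higher (23.1% of all) and 21 lower (19.7%). All 5 U2af probes were lower (median -3.40). The brighter U2af1 probe was 11.3-fold lower (log2 difference -3.50, adjusted p = 4.35e-10) and the dimmer 37.6-fold (adjusted p = 2.58e-12), and U2af2 was at -4.05, -3.33, -5.63 and -5.62 in Cumulus, 8-fold below IVF (log2 difference -3.0, adjusted p = 4.08e-08). The Lsm14 proteins of mRNA granules were lower too, Lsm14a at 1.48, 1.12, 0.87 and 1.51 (-4.06, SE 0.17, 16.7-fold, adjusted p = 1.37e-18) and Lsm14b at -2.01, -2.08, -1.97 and -1.91 (-4.03, SE 0.20, 16.3-fold, adjusted p = 1e-16). Hnrnpc, which binds U-runs, was 6.57-fold lower (-2.72, SE 0.26, adjusted p = 1.89e-10) and Lsm2 6.88-fold lower, with 1 of 4 Cumulus arrays above background.

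Higher in Cumulus was Prpf40b, a spliceosome protein that joins early, at 0.24, 0.53, 0.70 and 0.28 against -4.87 to -3.76 in IVF (log2 difference 4.57, SE 0.50, 23.8-fold, adjusted p = 2.61e-09). Lsm4 was at 1.88, 2.65, 2.83 and 2.05 (3.58, SE 0.28, 11.9-fold, adjusted p = 1.66e-12). Srsf3, which binds CU-rich exon sequence, was at -1.75, -0.31, 0.18 and -0.32 against -5.30 to -3.65 (3.70, SE 0.74, 13.0-fold, adjusted p = 6.58e-05), and Srsf12 was at -4.45, -2.97, -2.60 and -3.71 (3.52, SE 0.82, adjusted p = 0.000431), with 3 of 6 IVF arrays above background. Srsf6 was 5.33-fold higher (2.41, SE 0.30, adjusted p = 2.86e-08) and Hnrnpm 2.99-fold (1.58, SE 0.26, adjusted p = 4.08e-06). Of the Sf3a and Sf3b probes 4 of 9 were higher and 0 lower, among them Sf3b6, which touches the branch point adenosine (1.83, SE 0.23, 3.54-fold, adjusted p = 5.59e-08), Sf3b2 (1.69) and Sf3b3 (1.18, SE 0.18, adjusted p = 1.09e-06). Prpf8 was higher by 1.73 (SE 0.22, adjusted p = 5.96e-08) and Hnrnpa2b1 by 1.30 (adjusted p = 7.26e-07). Snrpb2, Snrpd1 and Lsm6 changed sign under median centring (0.84, 0.75 and 0.63) and have no settled direction here. Of the genes higher in clones, Lsm4 was higher in the donor cells as well, while the brighter Hnrnpdl probe was not called there (-0.17, adjusted p = 0.494) and its second was lower by 3.71. Of the 3 Srsf2 probes 2 were lower in Cumulus and 0 higher, and of the 4 Prpf4b probes 1 was higher and 1 lower. Hnrnpd, Lsm3 and Lsm7 are not given here for the donor cells. Of the other spliceosome proteins 21 of 78 probes were higher and 30 lower, of the other regulators 14 and 16 of 50, and of the kinases and assembly factors 5 and 20 of 42. The shares over all probes tested were 23.9% higher and 31.3% lower.

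The last comparison asked what injection of Spi-C mRNA went along with in clones. In Spi-C NT against TSA(-), 24 of the 117 probes were called lower and 5 higher, against 9.24% and 11.7% of all probes and 13.3% and 14.9% of those above background in either group. The median log2 difference was -0.15, while that of all probes was 0.13, and 72 probes had negative and 45 positive differences. How these probes stood to all probes depended on the scaling. Their median was -0.05 against 0.01 over all after quantile normalization and -0.32 against -0.04 after median centring. With normexp it was -0.17 against -0.24, and 33 of the 117 were lower against 32.7% of all probes. Groups did not overlap for 14 lower probes and 0 higher, against 4.30% and 5.15% of all probes. Under all 4 scalings 17 were lower (8.32% of all) and 2 higher (5.09%). The lower calls were 7 of 30 Hnrnp, 5 of 15 Snrp, 5 of 24 Prpf, 3 of 17 Srsf, 2 of 17 Lsm and 2 of 9 Sf3 probes. The Spi-C NT arrays were hybridized on 2 slides and read on 1 day with the other scanner and software, and none of the TSA(-) arrays were, so no effect of the mRNA can be told apart from these. The labels name no mock injection and no other mRNA, so the injection itself cannot be told apart from Spi-C either. Oocyte markers had lower sums in Spi-C NT, at 8.71 to 9.0, than in TSA(-), at 9.20 to 9.46, with 6 of 13 probes lower and 2 higher, and the part of this in the differences was not tested.

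The largest differences were in Prpf genes. Prpf19 was at 0.42 to 0.96 in TSA(-) (median 0.77), at -1.03, -0.60, -1.45 and -1.20 with 1.0 mg/ml and at -1.0, -1.11, -1.54 and -0.71 with 0.1 mg/ml. All 8 injected arrays lay below all TSA(-), TSA(+) and IVF arrays, a 3.45-fold difference (log2 difference -1.79, SE 0.13, adjusted p = 6.08e-11). Its level in Cumulus, read with the same scanner model as Spi-C NT, was -1.24 to -0.40. Prpf38b, which joins the spliceosome before activation, was at 2.91 to 3.63 in TSA(-) (median 3.35) and at 1.31 to 1.83 in the 8 injected arrays, 3.42-fold lower (-1.78, SE 0.10, adjusted p = 4.35e-13) without overlap. Its second probe, however, differed by 0.03 (adjusted p = 0.94). Prpf39, a U1-associated protein, was at 2.13 to 2.76 in TSA(-) (median 2.37) and at 1.20 to 1.77 with the mRNA, 1.96-fold lower without overlap (-0.97, SE 0.13, adjusted p = 1.37e-06), but its dimmer probe was called higher (1.37, SE 0.36, adjusted p = 0.00446), so the gene has no settled direction. Prpf18 was at 4.32 to 4.77 with 1.0 mg/ml and 4.07 to 4.55 with 0.1 mg/ml, 1.96-fold below TSA(-) (-0.97, SE 0.10, adjusted p = 2.8e-08) without overlap, and its second probe was lower by 0.94 (adjusted p = 1.56e-08) and its remaining probe differed by 0.05 (adjusted p = 0.783).

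**Figure D5:**
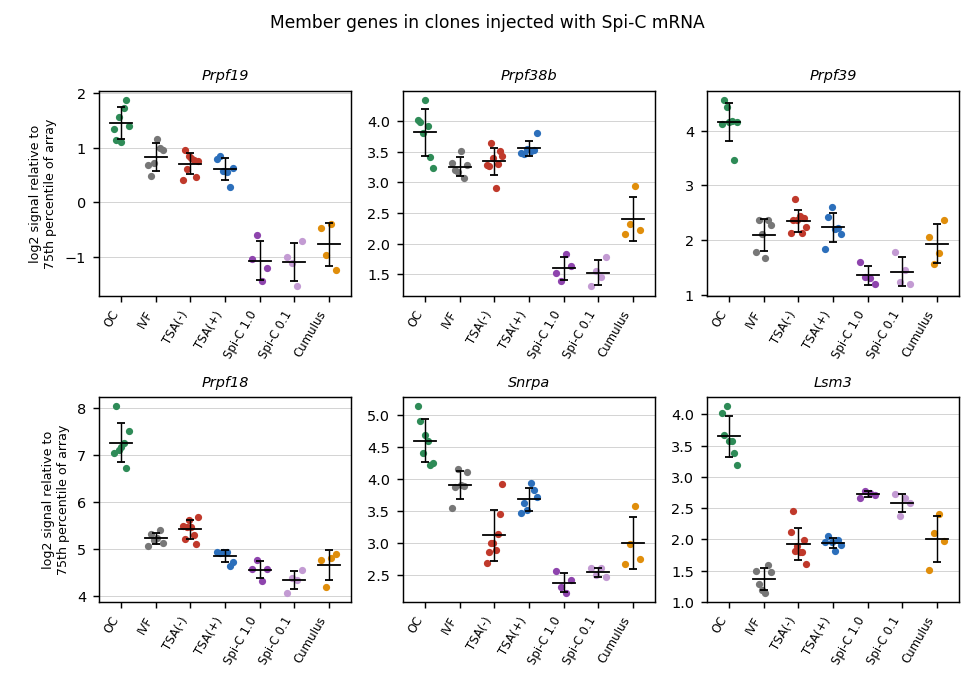
Log2 level by array (points) with mean and SD in the 7 groups for Prpf19, Prpf38b, Prpf39, Prpf18, Snrpa and Lsm3. The arrays of both mRNA concentrations lie together, below TSA(-) for the first 5 genes and mostly above it for Lsm3.

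Among the snRNP proteins, 12 of 15 probes were negative in Spi-C NT (median -0.43). Snrpa was at 2.23 to 2.56 with 1.0 mg/ml and 2.47 to 2.61 with 0.1 mg/ml, against 2.69 to 3.92 in TSA(-), 1.58-fold lower without overlap (-0.66, SE 0.14, adjusted p = 0.000494). The other 3 Snrpa probes were not called. The Sm proteins Snrpd1 (-0.69, SE 0.13, adjusted p = 0.000246) and Snrpd3 (-0.57, SE 0.12, adjusted p = 0.000452) were lower without overlap. Snrpe was lower by 0.41 (adjusted p = 0.00305), a call lost with quantile normalization (-0.25, adjusted p = 0.0463) and with normexp (-0.26, adjusted p = 0.0493). Srsf7, an SR protein with a zinc knuckle, was at 4.35 to 4.88 in the injected arrays and 5.11 to 5.89 in TSA(-), 1.83-fold lower (-0.87, SE 0.13, adjusted p = 6.66e-06), and so was its second probe (-0.95), both without overlap. The remaining Srsf7 probe was not called. Sf3b4 was lower by 0.80 (SE 0.17, adjusted p = 0.000588) with overlap, and Hnrnpf by 0.53 (SE 0.10, adjusted p = 0.000259) with overlap. Hnrnpu was lower by 0.65 (adjusted p = 0.00174; -0.45 and 0.0175 with quantile normalization). The brightest Hnrnpa1 probe was not called (-0.23, adjusted p = 0.256), but a dimmer one was 2.18-fold lower (-1.12, adjusted p = 5.19e-06). The remaining Hnrnpa1 probe was not called.

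Of the 5 probes called higher in Spi-C NT, Lsm3 was at 2.66, 2.78, 2.74 and 2.71 with 1.0 mg/ml, at 2.72, 2.37, 2.65 and 2.58 with 0.1 mg/ml and at 1.60 to 2.45 in TSA(-), with overlap at 1 array (0.72, SE 0.10, 1.65-fold, adjusted p = 3.9e-06). Sf3b2 was higher by 0.71 (adjusted p = 0.00114) and Hnrnpl by 0.77 (adjusted p = 0.00543), but both were lost under median centring (adjusted p = 0.0324 and 0.0232) and Hnrnpl also without any of 6 single arrays (adjusted p = 0.0102 to 0.0146). No U2af probe was called, with U2af1 at -0.72 (adjusted p = 0.0257). Of 21 promoters of 14 genes called lower, 7 held CCGGAAG (33.3%), against 24.1% for all members, which include these, and 6.91% of all promoters. Promoters of the same gene were counted separately. Among members lower in IVF than in OC under all 4 scalings, 6 of 23 promoters held it (26.1%), and among those higher 1 of 7. The 21 promoters also held the GC box in 76.2%, against 66.3% for all members, and had a median GC content of 63.6% against 61.2%. A link of these letters to Spi-C was not tested.

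Of the genes outside the rule, 12 of 78 probes for other spliceosome proteins were higher and 20 lower in Spi-C NT, 5 and 11 of 50 for the other regulators, and 4 and 11 of 42 for kinases and assembly factors. The shares over all probes tested were 11.7% higher and 9.24% lower. Cwc22, which brings in the exon junction complex, was 3.54-fold lower (-1.82, SE 0.21, adjusted p = 1.42e-07) and Raly, an hnRNP C relative, 2.26-fold lower (-1.18, SE 0.13, adjusted p = 5.96e-08). Sf1, the branch point binding protein that works with U2af2, was 2.56-fold higher (1.36, SE 0.14, adjusted p = 1.84e-08) and Khsrp, a KH-domain RNA binder, 2.17-fold higher (1.12, SE 0.11, adjusted p = 2.27e-08).

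Between the 2 concentrations of Spi-C mRNA, no probe of the 117 was called with limma, and 2 probes were called over the whole array (0.00506%). An unadjusted p under 0.05 was found for 2 of the 117, and the share of all probes at that threshold is not given here. The median log2 difference was 0.02. Srsf3 was at -2.81, -3.69, -4.35 and -4.17 with 1.0 mg/ml and -3.69, -7.35, -4.42 and -8.22 with 0.1 mg/ml, which overlap (2.16, SE 0.84, unadjusted p = 0.0163, adjusted p = 1). Lsm7 differed by 0.36 (SE 0.14, unadjusted p = 0.0205, adjusted p = 1).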

How the data were processed

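RNA of pooled oocytes, embryos or cumulus cells had been extracted with TRIzol, amplified linearly in 2 rounds, labelled with Cy3 and hybridized to whole-genome 44K mouse arrays. The deposited scanner files hold, for each spot, an intensity that the authors' Feature Extraction software had corrected for background, with version 9.5.3.1 for 27 arrays and 10.5.1.1 for 12. The authors also deposited a table of log2 values relative to the 75th percentile and to each probe's median over the 39 arrays, which served as an alternative only. Here, outlier spots (5238) and control spots were left out, spots of a probe were averaged, and log2 of the processed intensity minus the array's 75th percentile was used. Symbols came from RefSeq through the accession (23374 of 41174 probes). A probe was tested if its intensity was over 10 on at least 1 IVF or clone array.

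Differences were tested with limma 3.58.1 (lmFit and eBayes, R 4.3.3) over all 39517 probes, two-sided, with Benjamini-Hochberg adjustment, and called at an adjusted p under 0.01. All groups but Spi-C NT entered a first fit, and the fertilized and cloned embryos with Spi-C NT a second. The code was tested on simulated data. SE is that of the log2 difference after eBayes. Nothing says that pools came from separate animals or days, so p-values measure the spread between arrays. The number of arrays limits the precision. The members and gene lists were chosen with earlier results of these data known. The text names a set of anchor genes and, in each comparison, the called genes with the largest differences in each direction that had no overlap and whose brighter group was well above background throughout (4 each way, or 6 for clones against IVF), plus the members with the smallest p where none was called and the list genes with the largest differences (2 each way). Other probes of these genes, and some further called members, are given beside them and were picked after their values were seen. Values of 1 member gene are not reported here, though the counts include it. Alternatives covered the scaling, the background correction, the filter, the threshold, the test, slide, scan day and replicate blocks, and leaving out each array.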

Additional observations from a re-analysis of the deposited data

Results flagged for a closer look

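Within groups of 4 to 8 arrays, 51 values (50 genes and the median of the 117 probes) were examined for a single array far from the others by Dixon's criterion at the 95% level. Of 357 such examinations 23 stood out (6.4%), and chance alone gives about 1 in 20. All values are log2 levels. In OC, Sf3b2 was 2.55 in replicate 2 (others 3.41 to 3.76), Hnrnpk was 8.73 in replicate 6 (9.31 to 9.69), Prpf39 was 3.47 in replicate 6 (4.13 to 4.57) and Lsm10 was 0.865 in replicate 4 (1.68 to 2.29). In IVF, Sf3a1 was 2.19 in replicate 6 (1.90 to 2.01), U2af2 was -1.27 in replicate 5 (-1.80 to -1.65) and Srsf7 was 4.66 in replicate 1 (5.27 to 5.41).

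In TSA(-), Lsm5 was -3.96 in replicate 3 (-2.48 to -1.80) and Prpf4b was 0.59 in replicate 2 (1.40 to 2.06), and that array is the one at which TSA(-) and IVF overlap for Prpf4b. In TSA(+), Sf3b2 was 2.41 in replicate 5 (1.69 to 1.91), Snrpd2 was 1.12 in replicate 2 (0.33 to 0.52) and Prpf38b was 3.80 in replicate 6 (3.46 to 3.55). Replicate 1 of TSA(+) stood apart for 3 genes, with Hnrnpdl at 3.31 (3.99 to 4.25), Lsm10 at 3.96 (3.58 to 3.68) and Prpf4b at 1.21 (1.64 to 1.88).

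In Spi-C NT at 1.0 mg/ml, Prpf6 was 4.03 in replicate 2 (3.71 to 3.73), Lsm5 was -3.17 in replicate 3 (-1.73 to -1.44) and Srsf12 was -5.45 in replicate 2 (-7.68 to -7.57). At 0.1 mg/ml, Lsm4 was 0.555 in replicate 1 (0.09 to 0.14) and Lsm10 was 3.32 in replicate 3 (3.56 to 3.59). In Cumulus, replicate 2 stood apart for Hnrnpc at -0.95 (-1.26 to -1.21), for Prpf3 at 3.36 (3.64 to 3.69) and for the median of the 117 probes at 2.10 (1.88 to 1.91).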

How the results depend on the processing

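Counts are probes called higher and lower of 117, and medians are log2 differences. For IVF minus OC (22 and 71, median -1.04) quantile normalization gave 41 and 44 with a median of -0.029, median centring a median of -1.72, and 1 probe for each gene 12 higher. For TSA(-) minus IVF (9 and 9) quantile normalization gave 21 higher, normexp 15 and 16, and an adjusted p under 0.05 gave 15 and 17. For TSA(+) minus IVF (9 and 9) quantile normalization gave 16 higher with a median of 0.025, median centring 15 and 3 with 0.12, the 2 groups alone 15 and 15, an adjusted p under 0.05 gave 15 and 20, and 1 probe for each gene 4 lower. For TSA(+) minus TSA(-) (0 and 0) median centring gave a median of 0.22, Tukey's test 2 lower and an adjusted p under 0.05 gave 1 lower. For Cumulus minus IVF (25 and 39) median centring gave 54 and 21 with a median of 0.64, and 1 probe for each gene 20 lower with -0.055. For Spi-C NT minus TSA(-) (5 and 24) quantile normalization gave 8 higher with a median of -0.054, median centring 2 higher with -0.32, normexp 9 higher, the 2 groups alone 3, an adjusted p under 0.05 gave 10, and 1 probe for each gene 3. Median centring gave -0.050 between the concentrations. The cause was not tested. Direction reversed from OC to IVF after quantile normalization for Hnrnpa1 (0.23), Hnrnpu (1.06), Prpf31 (0.70), Sf3b2 (0.073), Snrpa (0.83), Snrpe (0.19), Snrpg (0.77), Srsf2 (1.65) and Srsf7 (0.93), with normexp for Srsf3 (-1.0), and for Cumulus minus IVF under median centring for Lsm6 (0.63), Snrpb2 (0.84) and Snrpd1 (0.75).

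Without single arrays, IVF minus OC gave 21 to 23 higher and 69 to 72 lower (median -1.11 to -0.98), TSA(-) minus IVF 8 to 10 and 5 to 10 (-0.069 to 0.018, with 5 lower without IVF replicate 4), TSA(+) minus IVF 7 to 8 and 5 to 10 (-0.140 to -0.053, with 5 lower without TSA(+) replicate 5), TSA(+) minus TSA(-) 0 and 0 (-0.026 to 0.043), Cumulus minus IVF 23 to 26 and 36 to 39 (-0.321 to -0.216), Spi-C NT minus TSA(-) 4 to 6 and 22 to 30 (-0.182 to -0.099), and the concentrations 0 and 0 (-0.009 to 0.032).

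Arrays with the same replicate number did not deviate together (highest correlation 0.0846 over all comparisons, and 0.0175 for Spi-C 1.0 or 0.1 with TSA(-)), so the numbers do not pair them. With the replicate block, Spi-C NT minus TSA(-) gave 3 higher and 11 lower, keeping 14 of 29 calls, and the other comparisons kept 90 of 93, 15 of 18, 15 of 18 and 61 of 64. Scan day as a block kept 93 of 93, 13 of 18 and 13 of 18, and could not be fitted where the groups share no day (Cumulus and Spi-C NT).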
